A study of Mus musculus with 6 samples.

Results

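The interleukin-4 (IL-4) receptor chain Il4ra and 7 transcription factors of T helper 2 (Th2) cells, Stat6, Gata3, Maf, Irf4, Nfil3, Gfi1 and Bhlhe40, were followed in CD4+ T cells without Ikzf4, which encodes Eos, a zinc finger protein of the Ikaros family. The 8 genes were chosen by symbol for their place in IL-4 signalling and Th2 differentiation, and each had a row among the 14868 genes of the deposited table. There were 2 groups, WT and Ikzf4-/-, with 3 RNA libraries each, all on the C57BL/6J background. In both groups naïve CD4+ T cells were stimulated for 72 h on plates coated with anti-CD3 (5 µg/mL) and anti-CD28 (2 µg/mL), and the medium held 10 ng/mL IL-4 and 10 µg/mL of an antibody against interferon gamma. How the Ikzf4 allele was made, the age of the mice, and whether replicates came from separate animals are not given in the sources used here, so p-values measure the spread between these libraries, which may be technical.

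IL-4 binds the receptor chain encoded by Il4ra, which pairs with the common gamma chain and signals through the kinases JAK1 and JAK3. The kinases phosphorylate docking sites on the receptor, STAT6 is recruited there and phosphorylated, and it then enters the nucleus and activates its target genes, among them Gata3 and Il4ra itself. GATA3 opens and maintains the Th2 cytokine locus. The other factors act beside it: c-Maf activates Il4, IRF4 works with AP-1 and BATF proteins downstream of the T cell receptor, Gfi1 favours the growth of Th2 cells, and Nfil3 and Bhlhe40 are induced regulators of cytokine genes. The comparison asks whether these factors moved in cells without Eos, or mainly the receptor.

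Of the 8 genes, Il4ra and Nfil3 fell in Ikzf4-/- cells at an adjusted p under 0.05, and none was called higher. Il4ra had a log2 fold change of -0.80 and Nfil3 of -0.68. Across the 14864 genes tested, 1.77% were called in either direction, 1.2% as lower and 0.572% as higher (limma with Benjamini-Hochberg adjustment over all genes). The called genes thus included the receptor and 1 of the 7 factors, and the other 6 factors were not called. Gfi1 and Irf4 lay just above the threshold, Gata3 and Bhlhe40 further from it, and Stat6 and Maf had fitted changes above 0. At an unadjusted p under 0.05 there were 6 of the 8 genes, each lower in Ikzf4-/- cells, against 10.1% of all genes lower and 18.1% in either direction at that level, and 0 of the 8 were higher. By the authors' deposited table, Gata3, Irf4 and Nfil3 had an adjusted p under 0.05, 3 of the 8 genes and all lower, against 6.34% of its 12849 genes with a value in either direction and 3.89% lower.

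Values below are normalized read counts, that is, reads per gene divided by 1 size factor per library, and fold changes are Ikzf4-/- over WT on the log2(value + 1) scale. With size factors inferred from the values, reads in the genes of the deposited table came to 34701390 to 40604346 per library. For Ikzf4-/- replicates 1 and 3 this inference is uncertain. Ikzf4 itself read 756, 499.6 and 483 in WT replicates 1 to 3, against 25.2, 10.5 and 38.2 in the Ikzf4-/- replicates, so each library matched its label. The 7 CD4 T cell markers (among them Cd3e and Cd4) all had rows, with means from 6428 to 27178, and their summed level was 95677 to 98834 in WT and 98654 to 101753 in Ikzf4-/- libraries; 1 of the 7, Cd5, was called as higher (log2 fold change 0.33, adjusted p = 0.0306 with limma), and its part in the results below was not tested. None of 6 myeloid markers had a row in the table, and of 5 B cell, 4 natural killer cell and 4 mast cell and basophil markers 1 each had a row (Cd79a, Eomes and Mcpt8), summing to at most 51.2, 299 and 33.0 in any library. The 2 CD8 T cell markers summed to 236 to 423 in WT and 232 to 374 in Ikzf4-/- libraries. These were bulk cultures, in which fewer cells of a type and less RNA per cell cannot be told apart. WT replicate 1 was the highest WT library for 6 of the 8 genes, so results are also given without it.

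**Figure D1:**
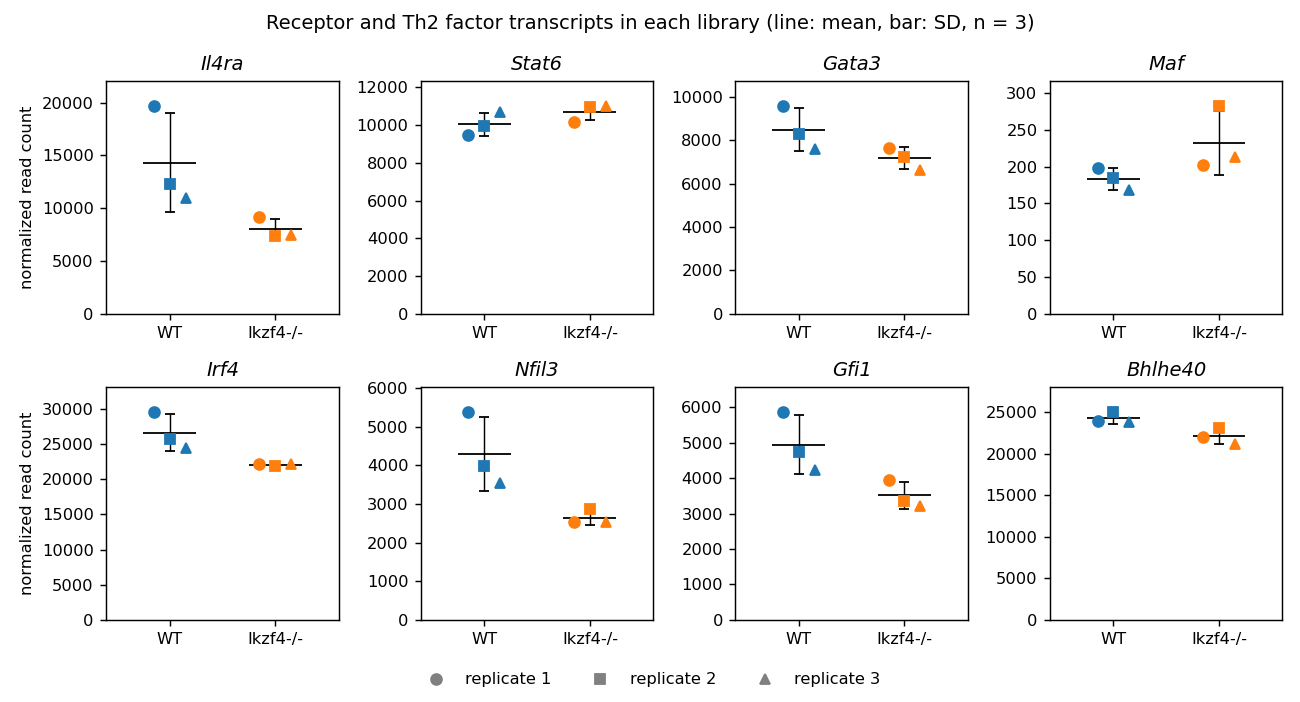
Normalized read count (y axis, from 0) of each of the 8 genes in the 3 WT (blue) and 3 Ikzf4-/- (orange) libraries, with the marker shape giving the replicate number, a line at the mean and a bar for the SD. The Ikzf4-/- values lie wholly below the WT values for Il4ra, Irf4, Nfil3, Gfi1 and Bhlhe40 and wholly above them for Maf, and the groups overlap for Stat6 and Gata3.

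Il4ra encodes the ligand-binding chain shared by the receptors for IL-4 and IL-13 (ENSMUSG00000030748, chromosome 7, 125552120 to 125579474 on the plus strand of GRCm38). WT replicates 1 to 3 held 19694, 12253 and 11002 normalized reads of Il4ra, against 9169, 7333 and 7467 in the Ikzf4-/- replicates. Every Ikzf4-/- library lay below every WT library, and WT replicate 1 stood well above the other 2 WT libraries. The mean fell by 44.2%, from 14316 ± 4699 to 7989.6 ± 1023 (SD, n = 3 each). The log2 fold change was -0.80 with a standard error of 0.17 and a 95% interval from -1.18 to -0.42 (limma adjusted p = 0.0476). Without WT replicate 1 the log2 fold change was -0.55 and Il4ra was still called (limma adjusted p = 0.00724). The call was lost without Ikzf4-/- replicate 3 (limma adjusted p = 0.164), without Ikzf4-/- replicate 2 (0.153), without Ikzf4-/- replicate 1 (0.0820) and without WT replicate 2 (0.0749), although the Il4ra change stayed between -0.97 and -0.55 in all 6 fits that left out 1 library. The authors' deposited table gave Il4ra a log2 fold change of -0.84 and an adjusted p of 0.0600, above the threshold.

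Nfil3 encodes a basic leucine zipper repressor, also called E4BP4, which is induced by IL-4 and takes part in the control of Th2 cytokines and of Il10 (ENSMUSG00000056749, chromosome 13, 52967209 to 52981073 on the minus strand). The WT libraries held 5378, 3971 and 3545 normalized reads of Nfil3 in replicate order, and the Ikzf4-/- libraries 2533, 2869.6 and 2526. As for Il4ra, WT replicate 1 was the highest library and the groups did not overlap. The mean of Nfil3 fell by 38.5%, from 4298 ± 959 to 2643 ± 196 (SD, n = 3 each), a log2 fold change of -0.68 (SE 0.12, 95% interval -0.95 to -0.41, limma adjusted p = 0.0292). Among the 8 genes it had the smallest p, and it ranked 101 of 14864 genes by p where Il4ra ranked 251. Without WT replicate 1 the Nfil3 log2 fold change was -0.51 (limma adjusted p = 0.00480). Its call was lost without WT replicate 2 (0.0615) and without Ikzf4-/- replicates 1 (0.0858), 2 (0.0531) and 3 (0.114). Nfil3 also passed in the authors' deposited table, at a log2 fold change of -0.70 and an adjusted p of 0.0102.

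Promoter windows, from 250 bases before to 50 after the RefSeq start site (GRCm38.p6), are shown for Il4ra and Nfil3. Il4ra is the receptor gene, and Nfil3 was the factor with the smallest limma adjusted p. The Il4ra window lies at chr7:125552021-125552320 on the plus strand and the Nfil3 window at chr13:52980990-52981289 on the minus strand. Capitals mark any match, on either strand, to GGGAA (the core that Ikaros-family proteins bind), the STAT6 motif (TTC and GAA with 4 bases between them), GATAA (a core that GATA factors bind) or CACGTG (the E-box that Bhlhe40 binds). A GGGAA match read from the other strand can lie inside a STAT6 motif.
Il4ra: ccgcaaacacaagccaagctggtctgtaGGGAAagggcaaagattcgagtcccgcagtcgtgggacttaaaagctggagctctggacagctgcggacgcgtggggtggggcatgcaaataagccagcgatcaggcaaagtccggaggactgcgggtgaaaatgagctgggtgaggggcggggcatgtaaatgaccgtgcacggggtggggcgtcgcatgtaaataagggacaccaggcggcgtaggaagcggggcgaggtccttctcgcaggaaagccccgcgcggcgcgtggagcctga
Nfil3: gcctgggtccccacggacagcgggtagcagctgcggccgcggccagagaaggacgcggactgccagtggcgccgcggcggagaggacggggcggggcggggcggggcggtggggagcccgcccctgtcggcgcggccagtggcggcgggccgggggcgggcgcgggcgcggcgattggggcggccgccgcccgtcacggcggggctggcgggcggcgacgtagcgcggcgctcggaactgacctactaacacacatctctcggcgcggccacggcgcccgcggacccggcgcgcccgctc
The Il4ra window held 1 match, a GGGAA on the strand shown that begins 222 bases before the start site, and the Nfil3 window held none of the 4 motifs. Of the 8 genes, 6 were matched in RefSeq's promoter table, with 7 windows in all. GGGAA was found for 2 of the 6, Il4ra and Stat6, against 62.7% of all 32851 promoter windows of that length. The STAT6 motif, the GATA core and the E-box were found for 0 of the 6, against 6.95%, 25.4% and 7.15% of all windows. These counts are of genes and the shares are of windows, so the units differ. A match describes letters and not a bound site, and a missing match says only that these letters are not in this window.

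Gfi1 encodes a zinc finger repressor that IL-4 and T cell receptor signals induce and that favours the expansion of Th2 cells (ENSMUSG00000029275, chromosome 5, 107716657 to 107726036 on the minus strand). The WT libraries read 5869, 4737 and 4230.4 in replicate order, and the Ikzf4-/- libraries 3953, 3365 and 3226. The groups did not overlap, but the gap between the lowest WT and the highest Ikzf4-/- library was narrow. The Gfi1 means were 4945 ± 839 and 3515 ± 386 (SD, n = 3 each). This gave -0.48 as the log2 fold change (SE 0.11, 95% interval -0.73 to -0.24), at a limma adjusted p of 0.0536, just above the threshold. Gfi1 was called without WT replicate 1 (limma adjusted p = 0.0455, log2 fold change -0.35), without WT replicate 3 (0.0177), with a pseudocount of 10 (0.0495) and with library weights (0.0220). Across the fits that left out 1 library its adjusted p reached 0.184, and the authors' deposited table gave it as 0.0522.

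Irf4 encodes a factor that rises with the strength of T cell receptor signalling and is needed for Th2 cells (ENSMUSG00000021356, chromosome 13, 30749226 to 30766976 on the plus strand). Irf4 read 29553, 25744 and 24480 in WT replicates 1 to 3, against 22117, 21896 and 22129 without Eos. The Ikzf4-/- libraries, with a coefficient of variation of 0.594%, all lay below the WT libraries, whose coefficient of variation was 9.93%. The means of Irf4 were 26592 ± 2641 and 22047 ± 131 (SD, n = 3 each), a log2 fold change of -0.27 (SE 0.06, 95% interval -0.40 to -0.13) that was not called (limma adjusted p = 0.0612). Irf4 was called without WT replicate 3 (0.0224) and with library weights (0.0338), and the authors' deposited table gave it an adjusted p of 0.00219.

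Gata3, the gene of the factor that defines the Th2 lineage (ENSMUSG00000015619, chromosome 2, 9857078 to 9890034 on the minus strand), read 9585, 8304 and 7594 in WT replicates 1 to 3, against 7629, 7251 and 6620.5 in the Ikzf4-/- replicates. The groups overlapped, since Ikzf4-/- replicate 1 lay above WT replicate 3. The Gata3 means were 8495 ± 1009 and 7167 ± 509.7 (SD, n = 3 each), and the log2 fold change of -0.24 (SE 0.08, 95% interval -0.42 to -0.06) was not called (limma adjusted p = 0.146). Without WT replicate 1 the Gata3 log2 fold change was -0.15 (limma adjusted p = 0.311), and without WT replicate 3 it was -0.32 and called (0.0491). Gata3 had an adjusted p of 0.0386 in the authors' deposited table, under the threshold.

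Bhlhe40 encodes a basic helix-loop-helix factor that binds E-boxes and restrains Il10 in T helper cells (ENSMUSG00000030103, chromosome 6, 108660629 to 108666925 on the plus strand). Bhlhe40 read 23988, 25005 and 23781 in WT replicates 1 to 3, against 22039.9, 23061 and 21127 in cells without Ikzf4. The groups did not overlap, and WT replicate 1 did not stand apart for this gene. The log2 fold change of Bhlhe40 was -0.14 (SE 0.05, 95% interval -0.24 to -0.03, limma adjusted p = 0.153), from a mean of 24258 ± 655 to one of 22076 ± 968 (SD, n = 3 each). It was called in none of the fits made here, with an adjusted p of 0.106 to 0.389, and its adjusted p in the authors' deposited table was 0.111. With quantile scaling the change of Bhlhe40 was -0.08 (limma adjusted p = 0.367), and the number of the 8 genes at an unadjusted p under 0.05 went from 6 to 5. Bhlhe40 had an unadjusted p of 0.0136 with limma and 0.0103 in the authors' deposited table.

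Stat6, the signal transducer directly below the receptor (ENSMUSG00000002147, chromosome 10, 127642986 to 127660957 on the plus strand), read 9463, 9972 and 10696 in WT replicates 1 to 3, against 10176, 10966 and 11019 in the Ikzf4-/- replicates. The groups overlapped, and WT replicate 1, the highest library for Il4ra, was the lowest for Stat6. The Stat6 log2 fold change was 0.09 (SE 0.05, limma adjusted p = 0.397), and its 95% interval of -0.03 to 0.22 did not reach the interval of Il4ra. The Stat6 change without WT replicate 1 was 0.05 (limma adjusted p = 0.727). Stat6 ends 969885 bp from Ikzf4 on the same chromosome, and whether DNA flanking the Ikzf4 allele differs at Stat6 was not tested. The table measures transcripts, so the phosphorylation through which STAT6 acts was not measured.

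Maf, the gene of c-Maf, which activates Il4 (ENSMUSG00000055435, chromosome 8, 115682942 to 115707794 on the minus strand), had the lowest level of the 8. WT replicates 1 to 3 read 198, 184 and 168 for Maf, against 203, 283 and 213 in the Ikzf4-/- replicates. All Ikzf4-/- values lay above all WT values, by little in replicate 1 and most in replicate 2. The Maf log2 fold change was 0.33 (SE 0.15, 95% interval -0.01 to 0.67) and was not called (limma adjusted p = 0.290), and without Ikzf4-/- replicate 2 it was 0.18 (0.626). Maf had a log2 fold change of 0.34 and an adjusted p of 0.300 in the authors' deposited table.

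**Figure D2:**
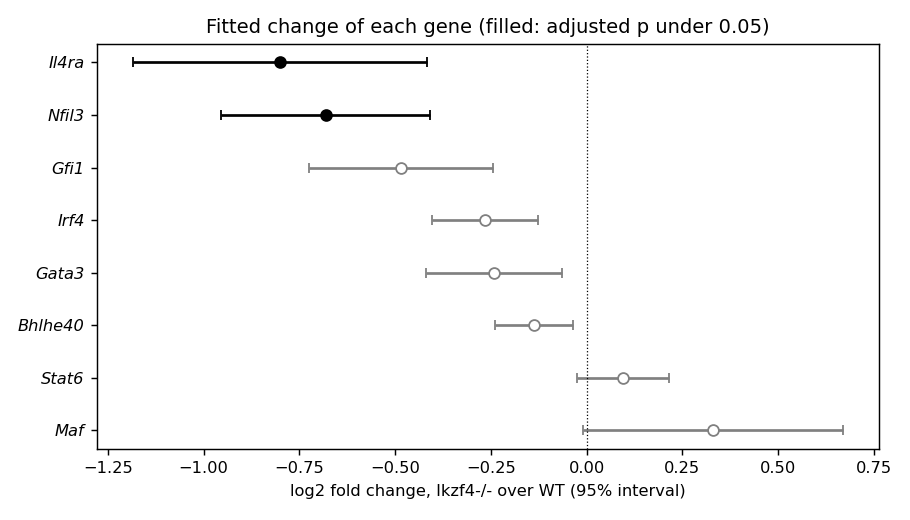
Log2 fold change of each gene, Ikzf4-/- over WT (x axis), with its 95% interval from limma, and filled points where the adjusted p was under 0.05. Il4ra (-0.80) and Nfil3 (-0.68) are filled, the intervals of Gfi1, Irf4, Gata3 and Bhlhe40 lie below 0 without passing the adjusted threshold, and those of Stat6 and Maf include 0.

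The values of the 2 groups did not overlap for 6 of the 8 genes, 5 lower and 1 higher (Maf). Over all genes tested 23.1% did not overlap, 12.2% lower and 11% higher. The median log2 fold change was -0.25 over the 8 genes and -0.24 over the 7 factors, beside 0.00 over all genes tested. The size of change ran in the order Il4ra, Nfil3, Gfi1, Maf, Irf4, Gata3, Bhlhe40 and Stat6. Set among all genes tested, the absolute log2 fold change of Il4ra was larger than that of 95.4% of genes, that of Nfil3 larger than 93.6%, that of Gfi1 larger than 88.3%, that of Gata3 larger than 73.4% and that of Stat6 larger than 44.3%.

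The difference between receptor and factors was tested directly by taking, in each library, the log2(value + 1) of Il4ra minus that of the factor, and comparing the groups with the two-sided exact permutation test over the 20 assignments of 6 libraries. With 3 libraries against 3 the smallest p this test can give is 0.1, so no comparison could reach 0.05, and over the 7 comparisons the smallest adjusted value was 0.117. For 6 of the 7 factors the ratio of Il4ra to the factor was lower in every Ikzf4-/- library than in any WT library. All 7 ratios share the Il4ra values, whose groups did not overlap on their own, so these are not separate results. How often other genes in place of the factors would give such a ratio was not tested. These are ratios of reads and not of levels per length, so only their difference between the groups is read. Relative to Stat6, log2(Il4ra/Stat6) was 1.06, 0.30 and 0.04 in WT replicates 1 to 3, against -0.15, -0.58 and -0.56 in the Ikzf4-/- replicates. The WT ratios were widely spread, with WT replicate 1 far above the others, and the Ikzf4-/- ratios lay below all of them. The change of Il4ra minus that of Stat6 was -0.90 on the log2 scale (exact permutation p = 0.1, adjusted 0.117). Relative to Gata3 the same difference in change was -0.56, to Irf4 -0.54, to Bhlhe40 -0.66, to Maf -1.13 and to Gfi1 -0.32, each with an exact permutation p of 0.1. Each was nearer 0 without WT replicate 1, at -0.60 for Stat6, -0.40 for Gata3, -0.36 for Irf4, -0.40 for Bhlhe40, -0.93 for Maf and -0.19 for Gfi1. Against Nfil3 the groups overlapped: log2(Il4ra/Nfil3) was 1.87, 1.63 and 1.63 in WT replicates 1 to 3, against 1.86, 1.35 and 1.56 without Eos. Its difference in change was -0.12 (exact permutation p = 0.4, adjusted 0.4), and between -0.25 and -0.00094 when 1 library was left out, which does not show that receptor and Nfil3 changed alike. The gap to Gfi1 rested on little: the lowest WT ratio was 1.37 and the highest Ikzf4-/- ratio was 1.21.

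**Figure D3:**
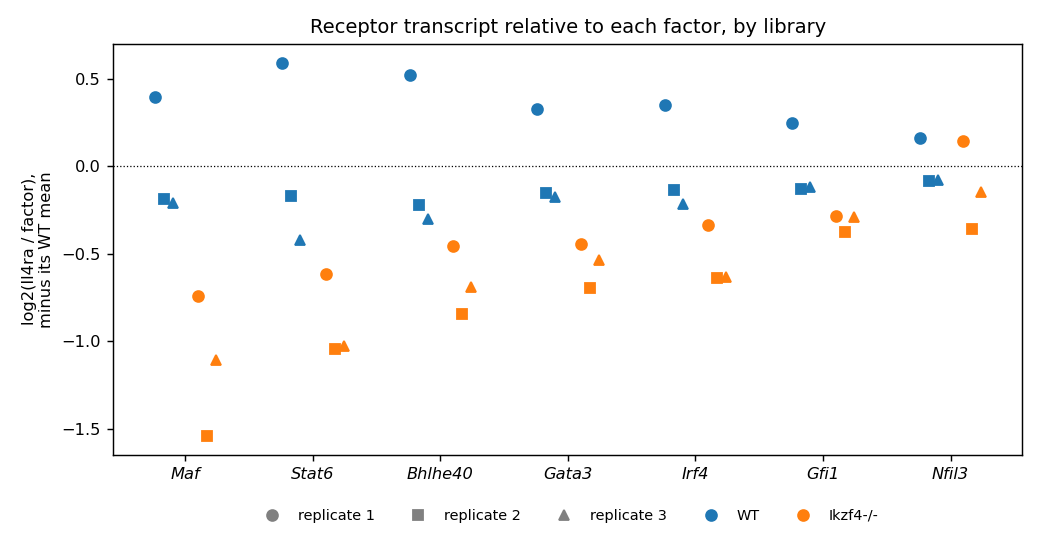
Log2 ratio of Il4ra to each factor in each library, minus the mean of the WT libraries for that factor (y axis), with WT in blue, Ikzf4-/- in orange and the marker shape giving the replicate. The Ikzf4-/- libraries lie below all WT libraries for each factor except Nfil3, where they overlap, and WT replicate 1 is the highest point for every factor.

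Leaving out each library in turn kept the direction of all 8 genes in all 6 fits. Where the groups did not overlap, as for all but Stat6 and Gata3, leaving out 1 library could not change the direction. The calls did change. Without WT replicate 3 there were 5 genes called (Il4ra, Gata3, Irf4, Nfil3 and Gfi1), beside 523 over all genes. Without WT replicate 1 there were 3 (Il4ra, Nfil3 and Gfi1), beside 269. In each of the 4 fits without WT replicate 2 or without any one Ikzf4-/- library limma called 0 of the 8 genes, with 4 to 7 at an unadjusted p under 0.05. Over all genes those fits also called fewer: 75 without WT replicate 2, and 48, 112 and 20 without Ikzf4-/- replicates 1, 2 and 3. The share of all genes at an unadjusted p under 0.05 was not computed for them. Without WT replicate 1 the log2 fold change was smaller for 5 of the 6 genes in which that library was the highest of WT. It went from -0.80 to -0.55 for Il4ra, from -0.68 to -0.51 for Nfil3, from -0.48 to -0.35 for Gfi1, from -0.27 to -0.19 for Irf4 and from -0.24 to -0.15 for Gata3. Maf was the exception, going from 0.33 to 0.39, and the change of Bhlhe40 stayed at -0.14.

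**Figure D4:**
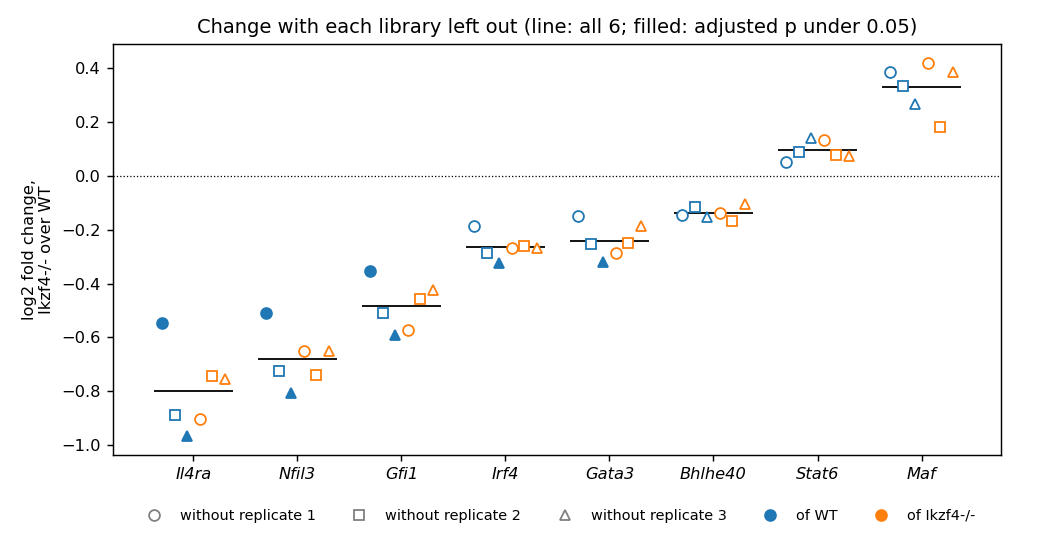
Log2 fold change of each gene, Ikzf4-/- over WT (y axis), with 1 library left out at a time, where the colour gives the group and the marker shape the replicate left out, filled points have an adjusted p under 0.05, and a line marks the value from all 6 libraries. Every point keeps the sign of its line, and for Il4ra the points run from -0.97 to -0.55.

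To compare levels between genes, values were divided by the merged exon length of each gene in GENCODE M21. In WT cells Irf4 had the highest level, at 5424 ± 539 normalized reads per kb (SD, n = 3), followed by Bhlhe40 at 5156 ± 139, which overlapped it. Il4ra (2385 ± 783), Stat6 (2282 ± 141), Gata3 (2135 ± 254), Nfil3 (2121 ± 473) and Gfi1 (1552 ± 263) followed, and in this run of levels per kb each neighbouring pair overlapped. Maf stood far below them at 22.3 ± 1.83 per kb. In Ikzf4-/- cells Bhlhe40 (4692 ± 206 per kb) and Irf4 (4497 ± 26.7) again overlapped at the top, and the order of levels below them differed: Stat6 at 2435 ± 107 and Gata3 at 1802 ± 128 lay above Il4ra at 1331 ± 171, with no overlap between these neighbours. Il4ra and Nfil3 (1304 ± 97.0 per kb) still overlapped, and Gfi1 (1103 ± 121) lay below Nfil3 without overlap. The receptor held the third level of the 8 in WT and the fifth in Ikzf4-/-, but its place in WT rested on WT replicate 1. Without that library, an alternative chosen after seeing the data, Il4ra averaged 1937 per kb in WT, below Stat6 at 2348 and Gata3 at 1998, and so already held the fifth level. In WT cells Il4ra was above 94.2% of all genes in level per kb, and in Ikzf4-/- cells above 89.1%.

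The 3 genes whose pattern over the 6 libraries was most like that of Il4ra were Srcin1, Batf and Fads2, by the root mean square difference between gene-centred log2 values among 11599 genes with a mean of at least 50. Batf, the gene of an AP-1 family factor that pairs with IRF4, differed from Il4ra by 0.07 on the log2 scale, where the spread of Il4ra itself was 0.49. Batf read 6744, 3772 and 3875 in WT replicates 1 to 3, against 3220.04, 2415 and 2426 in the Ikzf4-/- replicates, so WT replicate 1 stood apart for Batf as it did for Il4ra. The log2 fold change of Batf was -0.79 and was not called (limma adjusted p = 0.0634). Leaving out WT replicate 1 gave -0.52 with a call (0.0203). Batf was also called without WT replicate 3 (0.0379), with library weights (0.0385) and with the replicate number as a block (0.00128). It was not called without WT replicate 2 or without any one Ikzf4-/- library, where the limma adjusted p reached 0.210. Fads2, which encodes a fatty acid desaturase, differed by 0.08 and Srcin1, which encodes an adaptor of the kinase Src, by 0.06. Srcin1 had a low level, with a WT mean of 67.5. Neither was called with all 6 libraries (limma adjusted p = 0.0616 for Fads2 and 0.175 for Srcin1). Among the factors of the set, Nfil3 ranked 45 and Gfi1 ranked 77 in likeness to Il4ra, while Gata3 ranked 456, Irf4 484, Bhlhe40 2298, Stat6 9162 and Maf 10657.

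Of the further genes of IL-4 receptor signalling, 24 of 26 on the list had a row, and limma called 2 lower and 0 higher, against 1.2% of all genes called lower and 0.572% higher. At an unadjusted p under 0.05, 5 were lower and 3 higher, against 10.1% and 7.97% of all genes, and 4 passed as lower and 0 as higher in the authors' deposited table, against 3.89% and 2.45%. The called genes were the feedback inhibitors Socs3 (log2 fold change -1.32, limma adjusted p = 0.0258) and Socs1 (-0.37, 0.0375). Socs3 read 1001, 546 and 477 in WT replicates 1 to 3, against 273, 222 and 277 without Eos, with WT replicate 1 again the highest. Socs1, whose product binds and inhibits JAK kinases, read 6006, 6216 and 6407 in WT replicates 1 to 3, against 4328, 4679.7 and 5442 without Eos, and here WT replicate 1 was the lowest of its group. With each library left out in turn both were called 2 times in 6, and the limma adjusted p was highest for Socs3 without Ikzf4-/- replicate 3 (0.0894) and for Socs1 without Ikzf4-/- replicate 2 (0.123). Named for their roles after their values were seen, Il2rg, which encodes the common gamma chain, had a fitted change of 0.04 (limma adjusted p = 0.709), Jak1 one of 0.03 (0.791) and Jak3 one of -0.33 (0.0588), all without a call in limma. The groups did not overlap for Jak3, and it passed in the authors' deposited table (adjusted p = 0.000849). The median log2 fold change of the 24 genes was -0.03, beside 0.00 over all genes tested.

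Among 29 other transcription factors and chromatin regulators of T helper cells, 4 were called lower and 1 higher, against 1.2% and 0.572% of all genes, with a median of -0.08 beside 0.00. The wider counts were more even: 9 lower and 7 higher at an unadjusted p under 0.05, and 8 lower and 6 higher with groups that did not overlap. Those stand beside 10.1% and 7.97%, and 12.2% and 11%, of all genes. Batf3, a relative of Batf, had a mean of 502 ± 135 in WT and fell to 213 ± 66.8 (SD, n = 3 each), a log2 change of -1.25 (limma adjusted p = 0.0342). Junb, the AP-1 subunit that pairs with BATF proteins and takes part in Il4 activation, had a WT mean of 27165 ± 3157 and fell to 20343 ± 1435 (SD, n = 3 each), a log2 change of -0.41 (limma adjusted p = 0.0319). These genes encode partners of IRF4 at shared DNA sites. Runx3, which opposes Il4 expression and the Th2 fate, was also lower (-0.71, 0.0436), as was Men1, the gene of menin, which helps to maintain Gata3 expression (-0.29, 0.0403). The called gene that was higher was Bcl6, the repressor that defines follicular helper cells (0.67, 0.0291). None of these 5 genes was called without Ikzf4-/- replicate 3, where the limma adjusted p was 0.0869 for Batf3, 0.126 for Junb, 0.102 for Runx3, 0.136 for Men1 and 0.111 for Bcl6, nor without Ikzf4-/- replicate 1, where it ran from 0.0650 (Batf3 and Bcl6) to 0.123 (Runx3). Without Ikzf4-/- replicate 2, Batf3 (0.0612), Runx3 (0.116) and Bcl6 (0.0937) were not called. Without WT replicate 2, Batf3 (0.0615), Junb (0.0653) and Men1 (0.0643) were not called, nor was Men1 without WT replicate 1 (0.0547).

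The last list held effector genes known to be controlled by STAT6, GATA3 or c-Maf. Like the other lists, it was chosen with earlier results of these data known, so its counts are not independent evidence. Of 15 on the list 13 had a row, and limma called 5 lower and 0 higher, against 1.2% of all genes called lower and 0.572% higher. At an unadjusted p under 0.05, 8 were lower and 0 higher, against 10.1% and 7.97% of all genes. The authors' deposited table gave an adjusted p for 12 of the 13. By it 7 passed as lower and 0 as higher, against 3.89% and 2.45% of its genes with a value. All 13 had a fitted change below 0, against 48.7% of all genes, with a median of -0.63. For 1 of them, Il1rl1, named after its values were seen, the fitted change was only -0.02, the mean was higher in Ikzf4-/- (19.6 ± 17.0 against 17.3 ± 8.24, SD, n = 3 each) and the authors' deposited table gave a log2 fold change of 0.17. The called effector genes were Il24 (log2 fold change -1.60), Il10 (-1.48), Il4 (-0.87), Il13 (-0.82) and Ccr8 (-0.41), at limma adjusted p-values of 0.0144, 0.0157, 0.0144, 0.0450 and 0.0490. Il4, the cytokine that engages the receptor, read 491, 427 and 429.9 in WT replicates 1 to 3 and fell to 257, 271 and 212 without Eos. For Il4 the WT libraries lay close together, unlike for Il4ra. Set side by side, the log2 fold change was -0.87 for Il4 and -0.80 for Il4ra. Among the factors it was -0.68 for Nfil3, -0.48 for Gfi1, -0.27 for Irf4, -0.24 for Gata3, -0.14 for Bhlhe40, 0.09 for Stat6 and 0.33 for Maf. Nfil3, Irf4 and Gata3 passed in the authors' deposited table. Whether the changes of receptor, factors and cytokine depend on each other was not tested. With each library left out in turn, Il24 was called in all 6 fits, with a limma adjusted p of at most 0.0476. Il4 was lost without Ikzf4-/- replicate 3 (0.0571), and Il10 without Ikzf4-/- replicate 3 (0.0771) and without Ikzf4-/- replicate 1 (0.0532). Il13 and Ccr8 were each called in 1 of the 6 fits, Il13 without WT replicate 1 (0.0160) and Ccr8 without WT replicate 3 (0.0224), with adjusted p-values of up to 0.111 and 0.174 in the others. Both were also lost with equal library totals (0.0503 and 0.0557), and Ccr8 with a pseudocount of 0.1 (0.0516).

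**Figure D5:**
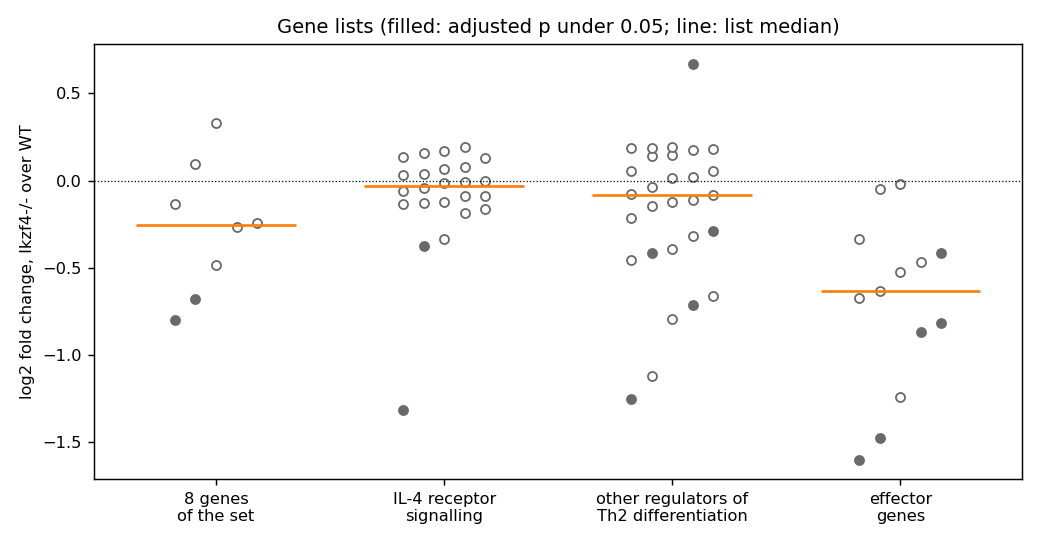
Log2 fold change, Ikzf4-/- over WT (y axis), of each gene of the set and of the 3 further gene lists, with filled points at an adjusted p under 0.05 and a line at each list's median. The medians are -0.25 for the set, -0.03 for receptor signalling, -0.08 for the other regulators and -0.63 for the effector genes.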

How the data were processed

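RNA of 3 WT and 3 Ikzf4-/- samples was sequenced by a service company. Trimmomatic 0.36, STAR 2.5.2b, DESeq2 and the build GRCm38 (mm10) are named, per the submitters' processing notes; the counting tool, its use of strand and the annotation are not given in the sources used here, so overlapping and antisense genes cannot be told apart. The sample columns deposited by the authors hold a never-negative signal, read as normalized counts because 100% of values were whole multiples (within 0.01) of 1 step per library. The implied reads entered no count test, since for Ikzf4-/- replicates 1 and 3 the step is so close to 1 that recovered reads could not be claimed. The authors' deposited log2 fold changes, p-values and adjusted p-values are quoted as theirs.

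The values, with 1 added, were put on the log2 scale, genes averaging under 10 were dropped, and genotype was the only term in limma 3.58.1 (R 4.3.3, with a variance trend), with Benjamini-Hochberg adjustment over all 14864 genes and calls at an adjusted p under 0.05. The procedure was tested on simulated data. Those libraries varied independently and none stood apart as WT replicate 1 does, so that case was not covered. The alternatives were quantile scaling, equal library totals, pseudocounts of 0.1 and 10, no filter, at least 10 in each library, library (array) weights, the replicate number as a block, each library left out, and the authors' table. Ratios of Il4ra to each factor were compared with scipy 1.17.1. Positions and exon lengths come from GENCODE M21 (GRCm38), promoters from RefSeq. Named genes were Ikzf4, the 8 genes, the called genes of 3 lists, and the 3 genes nearest to Il4ra in pattern. The genes, lists and tests were chosen with earlier results of these data known, so agreement with those results is not independent evidence. From the lists, 1 gene was left out of the counts and values given here.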

Additional observations from a re-analysis of the deposited data

How the results depend on the processing

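The calls depended on which libraries were included. Where the groups do not overlap, leaving out 1 library cannot change the sign, so signs kept there are no separate result. The 8 genes, the other genes named by rule and the Il4ra differences kept their sign under every alternative run for them. Genes named outside that rule were not followed through all alternatives. Among them Il1rl1 had a log2 fold change of -0.02 with limma and of 0.17 in the authors' deposited table. Leaving out 1 library gave 20 to 523 called genes, 0 to 5 of the 8 genes called, and a log2 fold change of Il4ra from -0.97 to -0.55, against 263, 2 and -0.80 with all libraries. Library weights gave 482 called genes and 4 of the 8, and 815 genes with 3 of the 8 passed in the authors' deposited table, where the log2 fold change of Il4ra was -0.84 and not called (adjusted p = 0.0600). With a replicate block 754 genes were called and 5 of the 8 (Il4ra, Gata3, Irf4, Nfil3 and Gfi1). Deviations of same-numbered libraries correlated at 0.145, 0.0122 and 0.142. Libraries of unlike number were not compared, so these values cannot settle whether the numbers are a pairing. The labels name no pairing, so replicate numbers are not treated as one. Equal library totals raised the higher share among calls from 32.3% to 42.8%, with 2 of the 8 genes called in both. For these the cause was not tested. Il4ra was called under each of the other scalings, filters, pseudocounts and weights, at adjusted p-values from 0.0189 to 0.0496. Over the other named genes and alternatives, 280 values kept both the direction and the side of the threshold, 45 fell short of the threshold and 20 newly passed it. The change of Il4ra minus that of Stat6 ran from -1.11 to -0.60 when 1 library was left out, of Gata3 from -0.65 to -0.40, and of Nfil3 from -0.25 to -0.00094.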
